A study of Danio rerio with 2 samples.

Results

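The regions described here are stretches of open chromatin that were wide in the zebrafish melanoma cell line zcrest 1 and had no called counterpart nearby in a second line, zcrest 2. A region was taken when it lay on chromosomes 1 to 25, was at least 600 bp wide in the zcrest 1 list, and had no zcrest 2 region within 5 kb of either edge. They were thus chosen by measured values, their width and presence in zcrest 1 and the lack of a call in zcrest 2, and those values are description here. This choice gave 1866 of the 12753 zcrest 1 regions of at least 600 bp, or 14.6%, and of 63335 regions in the whole zcrest 1 list. They are called wide zcrest 1-only regions below, where "only" means that no zcrest 2 region was called nearby and not that the DNA was closed in zcrest 2. They were set against the 10352 wide regions of zcrest 1 that overlapped a zcrest 2 region by at least 1 bp, called wide shared regions. The remaining 535 wide regions had a zcrest 2 region within 5 kb without touching it and were kept out of both classes.

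Both are zebrafish melanoma cell lines kept for more than 20 passages. Their genotype labels name the same items: p53, BRAF, Na (not expanded in the sources used here), crestin:EGFP, and MiniCoopR alone. MiniCoopR is a vector that carries mitfa, the gene of the main regulator of melanocytes, the black pigment cells. zcrest 1 and zcrest 2 were each profiled by ATAC-seq in 1 library of 50000 cells, so no difference between the lines has a replicate check, and each value compares 2 libraries. Positions are in the zebrafish build Zv9. No annotation or genome of that build was used here, so no gene or sequence is given, and the label of melanoma cell line was not checked against marker genes.

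In ATAC-seq a transposase cuts DNA that is not wrapped in nucleosomes or otherwise covered, and reads pile up where cutting is frequent. An open region of ordinary width is about the size of a single gap between nucleosomes, and wider ones usually hold several neighbouring cut sites, as at active promoters and at enhancers bound by many factors. The number of reads at a site follows both how open it is and how many copies of the DNA the cells hold, and these cannot be told apart in peak lists. The neural crest, which the crestin reporter marks, is the embryonic source of pigment cells, and its genes are controlled through such promoters and enhancers.

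The share of zcrest 1 regions with no zcrest 2 region within 5 kb was 14.6% among those of at least 600 bp, 36.3% among those under 600 bp and 31.9% among all on the numbered chromosomes. Among the wide regions themselves it was lower in the wider classes. It was 16.7% (1432 of 8552, 95% exact binomial interval 16% to 17.6%) at 600 to under 800 bp, 11.6% (342 of 2947, 10.5% to 12.8%) at 800 to under 1000 bp and 7.34% (92 of 1254, 5.95% to 8.92%) at 1000 bp or more. In the zcrest 2 list 6.17% of the regions of at least 600 bp (685 of 11105) had no zcrest 1 region within 5 kb. These shares are set by the choice itself, move with the depth and length of both lists, and are given as a description.

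The thresholds cut through a continuous range. The 142 regions of 600 to under 610 bp without a zcrest 2 neighbour had a median of 22 reads at the summit, and the 159 regions of 590 to under 600 bp, left out for their width, had 24. At the distance threshold, the 81 regions with a zcrest 2 region just over 5 kb and up to 5.5 kb away had a median of 26 reads. The 66 wide regions with one 4.5 to 5 kb away, left out, had 29.5 reads. Regions just inside and just outside either threshold therefore had like read numbers.

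The wide zcrest 1-only regions had fewer reads at their summits than the wide shared regions. A summit is the position where most reads overlap, and its read number was recovered from the deposited fold enrichment and -log10 p. The lowest, median and highest summit of the wide zcrest 1-only regions had 8, 26 and 190 reads, against 9, 38 and 299 in the wide shared regions. The ranges overlapped almost entirely, and the bulk differed: 75.1% of the wide zcrest 1-only regions (1402 of 1866, 73.1% to 77.1%) lay below the median of the wide shared ones. From the 10th to the 90th percentile the zcrest 1-only summits had 14 to 52 reads, against 19 to 74 reads for the shared summits. A summit of at least 50 reads was reached by 225 zcrest 1-only regions (12.1%) and by 3227 shared regions (31.2%). With 1 library per line no test was made, and the intervals cover counting error over regions that are not independent.

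The deposited strength measures ran the same way, and the gap was present within each width class. They are not independent of the summit reads, which were recovered from the fold enrichment and -log10 p. The median deposited fold enrichment over the local background was 7.41 in the wide zcrest 1-only regions and 8.97 in the wide shared regions, and the median -log10 q was 15.3 against 24.6. The 535 wide regions kept out of both classes had medians of 29 reads, 6.67-fold and a -log10 q of 14.6. Lower strength than the wide shared regions was thus not particular to the zcrest 1-only regions. Among the zcrest 1-only regions 72.1% (1346) had a -log10 q of 10 or more, as did 89.9% of the shared ones (9311) and 45.8% of all zcrest 1 regions on these chromosomes. The zcrest 1-only regions were also somewhat narrower, with a median width of 697 bp against 732 bp. Median summit reads were 25 zcrest 1-only and 35 shared reads at 600 to under 800 bp, 28 and 41 reads at 800 to under 1000 bp, and 35 and 50 reads at 1000 bp or more. The zcrest 1-only median was also lower on each of the 25 chromosomes taken alone, from 27 reads in zcrest 1-only against 31 in shared regions on chromosome 11 to 31 against 53 on chromosome 19.

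**Figure D1:**
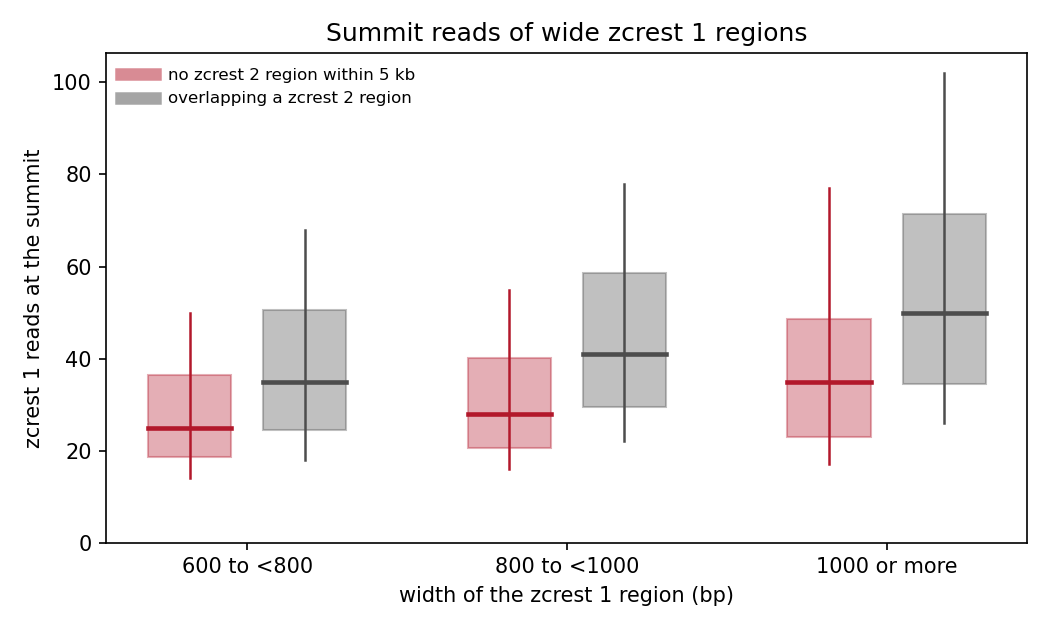
Reads at the summit in zcrest 1 (vertical axis) for wide zcrest 1-only regions (red, left of each pair) and wide shared regions (grey, right) in 3 width classes. Boxes span the interquartile range of the regions, bars within them mark the medians and lines run from the 10th to the 90th percentile. In each class the zcrest 1-only median (25, 28 and 35 reads) lies below the shared one (35, 41 and 50 reads), with boxes that overlap.

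Among the wide zcrest 1 regions, the share that were zcrest 1-only was lower in stronger classes, yet the strongest class still held some. The wide regions were ordered by -log10 q and cut into 10 classes of about equal size. In the weakest class, where the median summit had 16 reads, 32.4% (413 of 1276, 29.8% to 35.0%) were zcrest 1-only. In class 5 it was 13.5% (172 of 1275). In the strongest class, with a median of 82 reads, it was 4.39% (56 of 1276, 3.33% to 5.66%). The share went down at each of the steps between the classes.

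The place of the summit within the region was alike in the 2 classes. The summit lay at a median of 49.2% of the way along the region in zcrest 1-only regions and 49.6% in shared ones, and the median distance from the summit to the nearer edge was 240 bp and 251 bp. Among regions of at least 600 bp, width and summit reads rose together only weakly. The Spearman rho was 0.18 over the zcrest 1-only regions and 0.24 over the shared ones, all points coming from 1 library. Narrower regions are outside these rho values. Both wide classes had higher median summits (26 and 38 reads) than all zcrest 1 regions on the numbered chromosomes (18 reads). Within the wide classes, the wider region was thus not always the taller one. The extreme case, on chromosome 4 at 40659032 to 40660538, was 1507 bp wide with 16 reads at a summit near one edge, 91.3% of the way along, and a 4.83-fold enrichment.

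How large the difference between the lines was at these sites cannot be read from the calls, and called zcrest 2 summits give only a rough mark. At the genome-wide background, the lowest summit called in zcrest 2 had 8 reads, the 5th percentile was 10 reads, and the lowest rose to 12 reads where the local background was 4 to under 8 reads and to 19 reads above that. In zcrest 1, 1063 of the zcrest 1-only regions (57.0%, 54.7% to 59.2%) had at least 24 reads at the summit, 3 times the lowest zcrest 2 summit of 8. Shared regions reached that mark more often (81.3%, 8413 of 10352). Another 313 of the zcrest 1-only regions (16.8%) had 16 reads or fewer, within 2 times of that lowest summit, against 4.76% of the shared ones. All called zcrest 2 summits had a median of 14 reads at the genome-wide background, and 18 where the local background was above it and under 4 reads. The lowest called summit is not a level at which every site is called, and zcrest 1 and zcrest 2 reads were compared without scaling for depth. Whether the limit of calling takes part in the missing zcrest 2 calls was not tested. Both marks rest on the limit at the genome-wide background, where only 152 of the zcrest 1-only regions (8.15%) lay in zcrest 1. Among wide shared regions matched one to one with a zcrest 2 region, a read ratio of zcrest 2 over zcrest 1 under 1/3 of the genome-wide median ratio occurred in 5.98% (575 of 9611, 5.52% to 6.48%). Large read differences therefore also occurred where both lines had a call. The reads of zcrest 2 at the uncalled sites themselves were not analysed here.

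The strongest wide zcrest 1-only region lay on chromosome 3 at 47399460 to 47400147. It was 688 bp wide, with 190 reads at its summit, 8.05-fold enriched (-log10 q 99.6), and ranked 53 among all zcrest 1 regions on the numbered chromosomes. The nearest zcrest 2 region was 19.4 kb away. Its local background, which counts the region's own reads, was 10.2 times the zcrest 1 median. The second, on chromosome 2 at 21895362 to 21896329, was 968 bp wide with 162 reads, an 8.04-fold enrichment and a background 8.61 times the median, and the nearest zcrest 2 region was 7.24 kb away. Both stand in stretches of dense zcrest 1 signal, taken up further on.

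Of the 10 strongest, 3 lay close to each other on chromosome 15. The region at 38279154 to 38279978 had 130 reads and a 10.8-fold enrichment, the one at 37938880 to 37939602 had 117 reads and a -log10 q of 77.7, and the one at 38104792 to 38105627 had 118 reads and 10.4-fold. The first stood in 269 kb without any zcrest 2 region, which held 31 regions of zcrest 1, 7 of them wide. The second stood in 186 kb with 19 zcrest 1 regions and the last in 68.5 kb with 7. Each thus lay in its own run of zcrest 1 regions, with zcrest 2 regions between the runs.

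Others of the strongest lay elsewhere in the genome. On chromosome 9 at 43695887 to 43696987 a region of 1101 bp had 104 reads and a 14.4-fold enrichment. On chromosome 19 at 48057452 to 48058081 a region of 630 bp had 91 reads, and was 15.3-fold enriched (-log10 q 75.2), on a background 2.23 times the median. On chromosome 5 at 7330928 to 7331655 a region of 728 bp had 90 reads and a 14.4-fold enrichment, and was the single zcrest 1 region in the 21.3 kb between its zcrest 2 neighbours. The chromosome 19 and chromosome 5 sites lay where matched regions had near-median read ratios of zcrest 2 over zcrest 1 (log2 -0.04 over 79 pairs and -0.00 over 51 pairs). Around the chromosome 9 site this ratio was -0.63 over 25 pairs, and around the 3 chromosome 15 sites it was -1.75 to -1.58. The 47.9 kb free of zcrest 2 regions around the chromosome 19 site held 3 zcrest 1 regions, this one included.

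The remaining regions of highest -log10 q were on chromosome 24 at 9646903 to 9647571 with 121 reads, chromosome 14 at 23790624 to 23791355 with 105 reads, chromosome 23 at 742489 to 743230 with 104 reads and chromosome 19 at 19094141 to 19094938 with 103 reads. Their enrichments ran from 10.8-fold to 13.0-fold. The chromosome 14 region had the nearest zcrest 2 region 52.2 kb away and was the single wide one among 6 zcrest 1 regions in 106 kb free of zcrest 2 regions. Each of these sites had a local background 3.21 to 4.62 times the zcrest 1 median. The log2 read ratio of the matched regions around them, zcrest 2 over zcrest 1, was -0.76 to -0.29.

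Of the 5 widest regions, 4 had summits above the 90th percentile of all wide zcrest 1-only regions, which was 52 reads. The widest, on chromosome 19 at 47353396 to 47355054, measured 1659 bp and had 70 reads at the summit. Next came chromosome 3 at 48450029 to 48451683 with 1655 bp and 142 reads, chromosome 2 at 56017717 to 56019267 with 1551 bp and 87 reads, the low chromosome 4 region given above, and chromosome 2 at 21779253 to 21780727 with 1475 bp and 123 reads. All but the chromosome 4 one stood on a background 4.19 to 8.63 times the median. No wide zcrest 1-only region reached the 4268 bp of the widest shared one.

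The 5 regions farthest from any zcrest 2 region had 13 to 21 reads at the summit, below the median of 26 over all wide zcrest 1-only regions. The farthest, on chromosome 9 at 36527419 to 36528329, was 335 kb from the nearest zcrest 2 region and had 21 reads at the summit. It stood in 692 kb without a zcrest 2 region, which held 9 zcrest 1 regions, 1 of them wide. The next were on chromosome 24 at 32314181 to 32314799 (18 reads, 230 kb), chromosome 4 at 26661074 to 26661718 (21 reads, 223 kb), chromosome 15 at 12916198 to 12917042 (20 reads, 200 kb) and chromosome 24 at 32272336 to 32272936 (13 reads, 189 kb). All 5 had a background no higher than the zcrest 1 median.

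Over all 1866, the nearest zcrest 2 region lay a median of 16042 bp away, with an interquartile range of 9.12 to 30.4 kb. The interval between the zcrest 2 regions on either side, known for 1865 of them, had a median length of 65.4 kb and held a median of 3 zcrest 1 regions. In 476 cases (25.5%) the wide region was the single zcrest 1 region in that interval, and in 482 (25.8%) the interval held 5 or more. The others shared the interval with 1 to 3 further zcrest 1 regions, so most were not solitary.

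Zcrest 1 regions farther out were also more often without a zcrest 2 neighbour. Zcrest 1 regions 10 to 100 kb from a wide zcrest 1-only region were taken, beyond the 5 kb of the distance rule. The median share of them with no zcrest 2 region within 5 kb of its own was 40% (interquartile range 21.5% to 62.5%, 1862 regions with neighbours). Around wide shared regions it was 27.3% (13.3% to 43.8%, 10336 regions). The interquartile ranges overlapped broadly. This measure is not independent of the choice of regions. The interval free of zcrest 2 regions around a zcrest 1-only region, a median of 65.4 kb long, can hold such neighbours. A shared region has a zcrest 2 call by definition. The measure was also chosen with the values already seen.

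Wide zcrest 1-only regions were unevenly spread over the chromosomes. Taking both classes of wide region together, 15.3% were zcrest 1-only. On chromosome 4 the share was 35.1% (72 of 205, exact interval 28.6% to 42.1%), on chromosome 15 it was 31.8% (106 of 333, 26.9% to 37.1%), on chromosome 16 25.5% (137 of 538, 21.8% to 29.4%), on chromosome 7 22.3% (129 of 579, 19.0% to 25.9%) and on chromosome 3 19.9% (107 of 538, 16.6% to 23.5%). These 5 had intervals wholly above the common share. For chromosome 3 this held only with the stretches included. It did not hold there at a -log10 q of 10 or more (14.3%, 11.2% to 17.9%, common share 12.6%) or a width of 1000 bp or more (5.56%, 1.53% to 13.6%, common share 7.49%). At 1000 bp or more the interval of chromosome 16 also held the common share (11.3%, 4.27% to 23.0%). Other widths, distances and strengths were not tried for chromosome 7. The lowest were chromosome 12 with 6.55% (19 of 290, 3.99% to 10.0%), chromosome 13 with 7.71% (42 of 545) and chromosome 18 with 8.17% (42 of 514). In all, 8 chromosomes had intervals wholly below the common share and 12 had intervals that held it. Without the 3 stretches named below, chromosome 3 came to 16.5% (13.3% to 20.1%), an interval that held the common share outside the stretches (14.97%), and chromosome 2 to 13.4% in place of 16.1%.

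The read numbers of matched regions varied along with this spread. No zcrest 1-only region is among the matched ones, but 9611 of the 10352 wide shared regions are. A zcrest 2 call also rests on zcrest 2 reads, so the share and the read ratio are not independent. Across all 32455 regions matched one to one between the lines, the log2 ratio of summit reads, zcrest 2 over zcrest 1, had a median of 0.08, which was set to 0. Values below 0 therefore mean relatively more reads in zcrest 1. On chromosome 16 the median was -0.55, on chromosome 15 -0.30 and on chromosome 12 0.53. Over the 25 chromosomes the share of zcrest 1-only regions and this ratio had a Pearson r of -0.59 and a Spearman rho of -0.81, and over the 24 without chromosome 4 an r of -0.78 and a rho of -0.90. The points share the same 2 libraries, so this is a description. Neither the correlation nor leaving out chromosome 4, the visible outlier, was planned beforehand. Chromosome 4 stood apart, with the highest share and a ratio of 0.07.

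**Figure D2:**
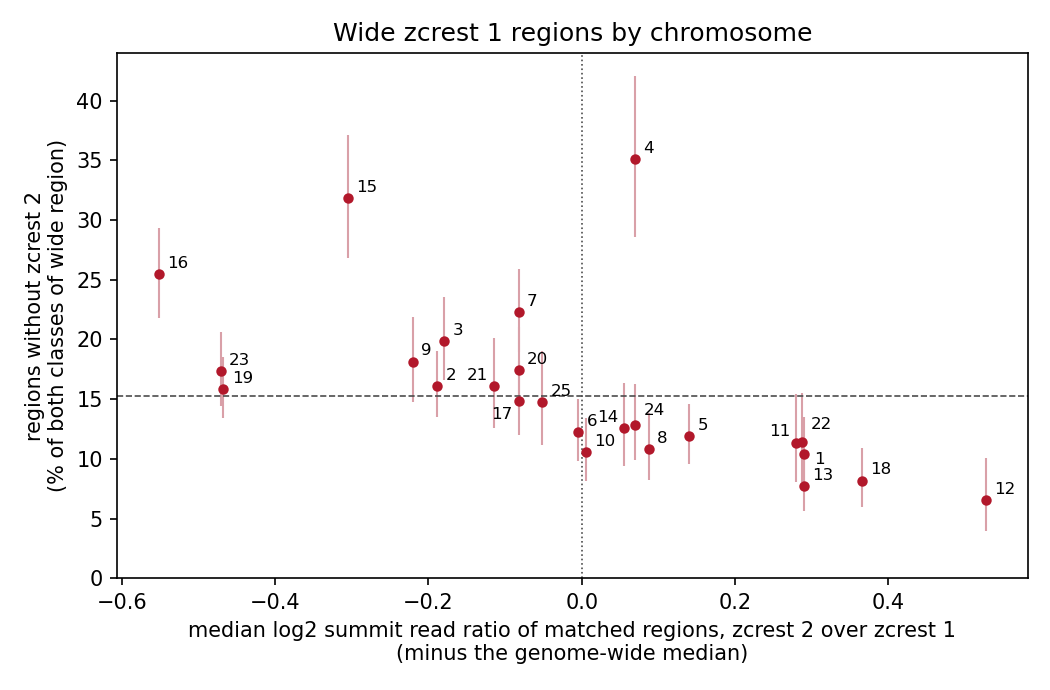
Share of zcrest 1-only regions among both classes of wide zcrest 1 region (vertical axis, percent, with 95% exact binomial intervals) against the median log2 summit read ratio, zcrest 2 over zcrest 1, of matched regions (horizontal axis) for each numbered chromosome. The dashed line marks the share over all chromosomes, 15.3%. Chromosomes 12 and 18, far right, have 6.55% and 8.17%, chromosome 16, far left, has 25.5%, and chromosome 4 has 35.1% at a ratio of 0.07.

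In windows of 5 Mb the spread was wider still. Of 263 windows with at least 20 wide regions of the 2 classes, 9 had at least 40% zcrest 1-only regions and 4 had none. The highest were chromosome 4 at 40 to 45 Mb with 65.0% (13 of 20, 40.8% to 84.6%), chromosome 5 at 50 to 55 Mb with 55.2% (16 of 29, 35.7% to 73.6%) and chromosome 15 at 35 to 40 Mb with 50.0% (40 of 80, 38.6% to 61.4%). The windows with none were on chromosome 13 at 20 to 25 Mb (0 of 51, which allows up to 5.88% by a limit of 3 counts and 6.98% by the exact interval), chromosome 12 at 45 to 50 Mb (0 of 36, up to 8.33% and 9.74%), chromosome 7 at 55 to 60 Mb (0 of 31, up to 9.68% and 11.2%) and chromosome 22 at 40 to 45 Mb (0 of 22, up to 13.6% and 15.4%, the exact limit taking in the common share). On chromosome 7, which lies high as a whole, the 3 windows from 30 to 45 Mb had 44.4%, 42.4% and 42.6%, so a window with none and windows above 40% lay on the same chromosome. The matched-region ratio was below 0 in 8 of the 9 windows of at least 40%, the exception being chromosome 2 at 20 to 25 Mb (0.02), where all 26 zcrest 1-only regions lay in one stretch named below. It was above 0 in 19 of the 22 windows under 5%. How many of all 263 windows had a ratio below or above 0 was not counted, so these counts have no baseline. The windows are not independent, as 3 of the 9 adjoin on chromosome 7 and several of the 22 lie on chromosome 12.

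Single regions were then taken. For each wide region the median ratio of the matched regions within 1 Mb on each side was taken, leaving out the region itself. Around the zcrest 1-only regions it was -0.22 at the median (interquartile range -0.54 to 0.05, a median of 45 pairs each), against -0.04 around the shared regions (-0.31 to 0.21, 51 pairs). It lay below 0 around 69.5% of the zcrest 1-only regions (1297 of 1866, 67.4% to 71.6%) and 53.7% of the shared ones (5560 of 10352, 52.7% to 54.7%). Below -0.5 lay 27.5% (513) and 13.5% (1399). Neighbouring regions share their matched regions, so the intervals are too narrow.

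Part of this lay within chromosomes. On 19 of the 25 chromosomes the median surrounding ratio was lower for zcrest 1-only than for shared regions of the same chromosome, on 4 it was higher and on 2 equal. The size of the gap varied, so the count of chromosomes does not measure it. Large gaps lay on chromosomes 7 (-0.55 against -0.11), 11 (-0.14 against 0.29) and 20 (-0.50 against -0.00). Chromosomes 16 (-0.593 against -0.580), 18 (0.342 against 0.352) and 21 (-0.165 against -0.162) had very small ones. The 685 wide zcrest 2 regions without a zcrest 1 region within 5 kb showed the opposite sign. Their surrounding ratio had a median of 0.22 (interquartile range -0.00 to 0.45) and lay above 0 for 74.6% (511 of 685, 71.2% to 77.8%). Wide zcrest 2 regions that overlap a zcrest 1 region were not measured in this way, so these values have no comparison class of their own. Whether read numbers along the chromosome take part in which regions had a call in 1 line was not tested.

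**Figure D3:**
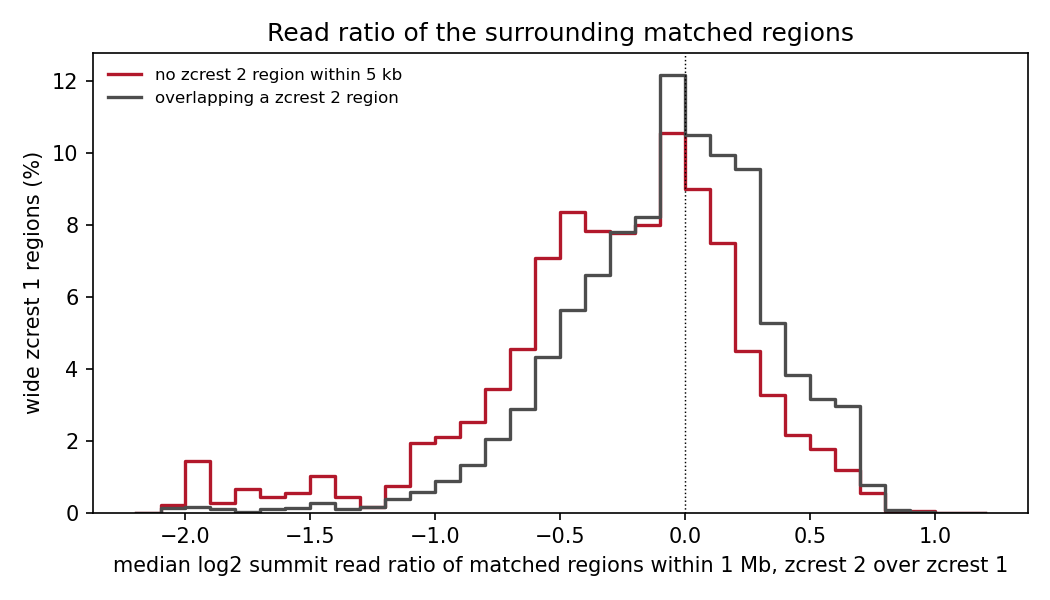
Distribution of the median log2 summit read ratio, zcrest 2 over zcrest 1, of matched regions within 1 Mb of each wide zcrest 1 region (horizontal axis), as a percent of the regions in each class (vertical axis). The red line, zcrest 1-only regions, is shifted to the left of the grey line, shared regions (medians -0.22 and -0.04), and has small peaks near -2.0 and -1.5.

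The lower ratio reached far from the regions. In matched regions 5 to 50 kb away it was -0.25 at the median around zcrest 1-only regions outside the 3 stretches and -0.08 around shared regions. At 50 to 200 kb it was -0.24 and -0.05, at 200 kb to 1 Mb -0.20 and -0.03, and at 1 to 5 Mb -0.17 and -0.01. The gap between the classes thus shrank little over this range. Inside the 3 stretches the ratio was -2.30 at 5 to 50 kb and at 50 to 200 kb, -1.62 at 200 kb to 1 Mb and -0.05 at 1 to 5 Mb. The zone of 5 to 50 kb rests on few matched regions, a median of 2 around each region in every class. It held any for 1437 of the 1814 zcrest 1-only regions outside the stretches and for 39 of the 52 inside.

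**Figure D4:**
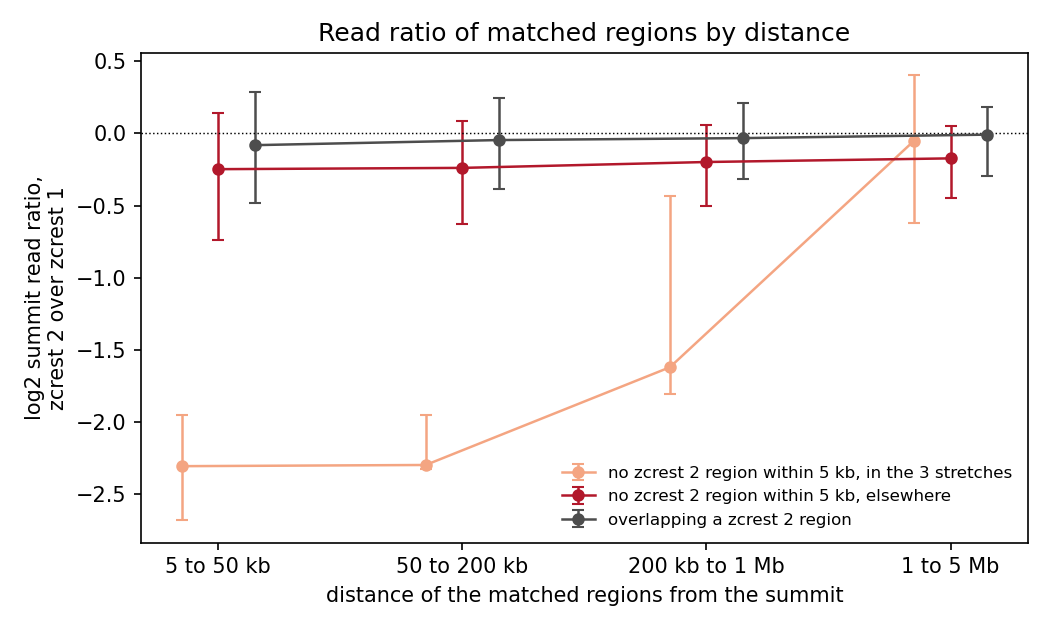
Median log2 summit read ratio, zcrest 2 over zcrest 1, of matched regions (vertical axis) in 4 zones of distance from wide zcrest 1-only regions inside the 3 stretches (orange), those elsewhere (red) and wide shared regions (grey). Points are medians over regions and lines span the interquartile range. The nearest zone, 5 to 50 kb, holds a median of 2 matched regions around each region. The red points run from -0.25 to -0.17 and stay below the grey ones, and the orange points return to -0.05 in the outermost zone.

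A surrounding ratio near or above 0 was still common. Around 569 of the zcrest 1-only regions it was at or above 0, and at the median these were about as strong as the 1297 below 0. Median summits had 24 and 27 reads, with enrichments of 7.52 and 7.39 and local backgrounds of 1.05 and 1.19 times the median. Very strong regions were less frequent among the 569, where 10 (1.76%) had a -log10 q of at least 50, as did 46 of the 1297 (3.55%). The 5 strongest of the 569, singled out after their values were seen, had 80 to 91 reads at the summit. They were on chromosome 14 at 15014645 to 15015391 (15.2-fold), chromosome 10 at 37895510 to 37896142 (13.7-fold) and at 14321045 to 14321717 (14.3-fold), and chromosome 18 at 563928 to 564698 and at 1798455 to 1799511 (10.7-fold each). At the second chromosome 10 site the surrounding ratio was 0.28 over 36 pairs, with matched regions leaning to zcrest 2 and 80 reads in zcrest 1 at a site where zcrest 2 had no call within 13.6 kb.

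On chromosome 4 a high share of zcrest 1-only regions and a pooled ratio above 0 occurred in the same zone. From 30 to 60 Mb, limits chosen after the values were seen, 47 of 81 wide regions were zcrest 1-only (58.0%, 46.5% to 68.9%), with 11 to 72 reads at the summit (median 25). The matched regions there had a median ratio of 0.15 (237 pairs), while those of its window at 40 to 45 Mb had -0.14 (37 pairs), and the surrounding ratio was above 0 around 35 of the 47. Both lines had about as many regions there, 721 in zcrest 1 and 718 in zcrest 2, and 52.1% and 49.7% of them had no region of the other line within 5 kb. Of the wide zcrest 2 regions of the zone 34.3% (23 of 67) had no zcrest 1 region within 5 kb, against 6.17% over all numbered chromosomes. The zone therefore held many unmatched regions of both lines. The long arm of zebrafish chromosome 4 is known for its many repeats and its few ordinary protein-coding genes.

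Most wide zcrest 1-only regions had no other region of their own class within 50 kb, though most had other zcrest 1 regions near. Another one lay within 50 kb of 393 of them (21.1%, 19.2% to 23.0%), and another shared region within 50 kb of 6196 of the shared ones (59.9%). The shared regions are over 5 times as many, so these shares are not on a common footing. Joined over 50 kb, the zcrest 1-only regions formed 1473 groups of 1, 134 of 2 and 32 of 3 or more.

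The group of most members lay on chromosome 2 at 21665518 to 21896329, with 13 wide zcrest 1-only regions in 231 kb. Their summits had 24 to 162 reads (median 40), on a background 4.27 times the zcrest 1 median, own and neighbouring reads included. The span held 34 zcrest 1 regions of any width and 5 of zcrest 2. Matched regions within 1 Mb had a ratio of -1.98 at the median.

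The zcrest 1 signal dropped off just above this group. In the rest of the 1 Mb below its centre zcrest 1 had 129 regions with a median of 40 reads, and zcrest 2 had 32 with 21 reads. In the rest of the 1 Mb above it zcrest 1 had 14 regions with 17 reads, and zcrest 2 had 27 with 20 reads. The last region before the drop was the one at 21895362 to 21896329 given above. Further wide zcrest 1-only regions were 13 of the 129 zcrest 1 regions below the group and 0 of the 14 above it. Over the numbered chromosomes they were 1866 of 63332, so with so few regions above, the 0 says little.

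**Figure D5:**
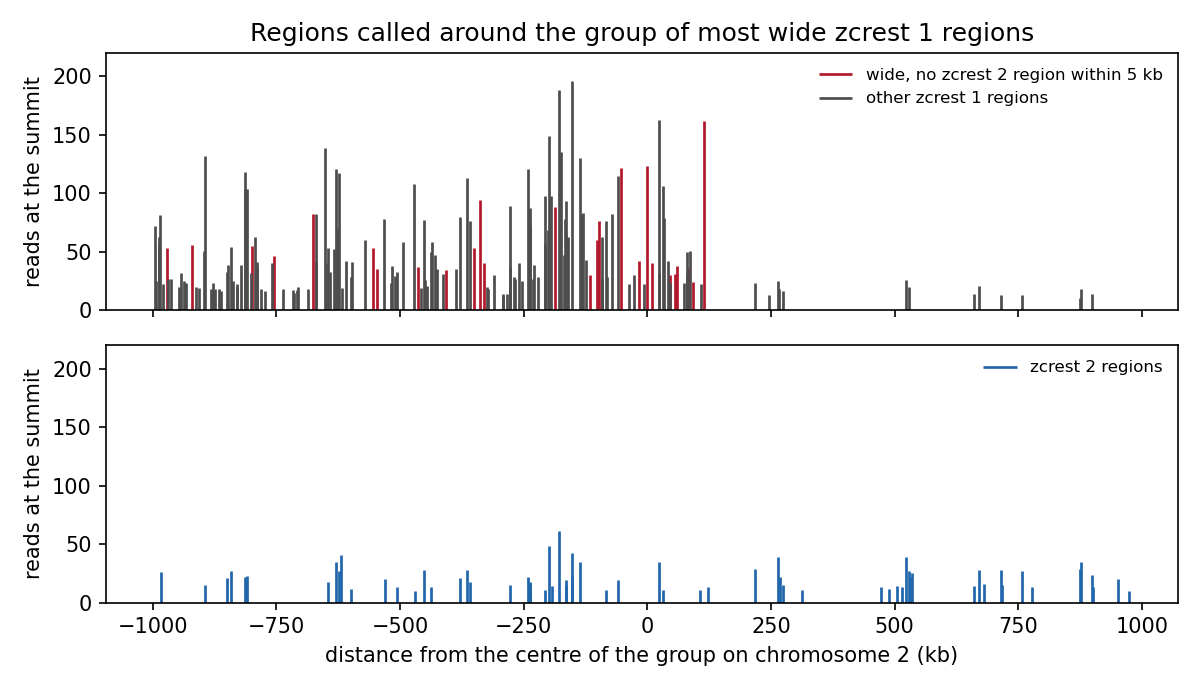
Summits called within 1 Mb of the centre of the chromosome 2 group, placed by distance from that centre in kb (horizontal axis), with line height giving the reads at the summit. The upper panel shows zcrest 1, with wide zcrest 1-only regions in red and all others in grey, and the lower panel shows zcrest 2 in blue. The tall zcrest 1 lines end about 115 kb above the centre, where the last red line has 162 reads, and the zcrest 2 lines run on to the right edge with up to 39 reads.

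Other groups were smaller. On chromosome 3 at 47321674 to 47400147, 6 wide zcrest 1-only regions had 35 to 190 reads on a background 5.79 times the median. On chromosome 20 at 14245027 to 14345504, 6 had 26 to 83 reads on a background 3.17 times the median, with a surrounding ratio of -1.45, outside the 3 stretches. Groups of 5 lay on chromosome 23 at 31261051 to 31339171 (24 to 77 reads), on chromosome 7 at 35481926 to 35535702 (16 to 50 reads) and on chromosome 15 at 35742620 to 35827550 (20 to 68 reads), where zcrest 2 had 0, 0 and 1 regions. On chromosome 7 all 5 of the zcrest 1 regions in the group's 53.8 kb were wide and without a zcrest 2 neighbour. The surrounding ratio was below 0 at each of these groups.

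The 3 stretches of dense zcrest 1 signal, one of 1.5 Mb on chromosome 2 ending at 22 Mb, one on chromosome 3 from 47 to 48 Mb and one of 1 Mb centred on 51 Mb of chromosome 3, held 26, 14 and 12 wide zcrest 1-only regions. The stretches were marked out with earlier results of these same data known, for their dense zcrest 1 signal. The values within them therefore follow in part from that choice and are description. These 52 are 46.4% of the 112 wide zcrest 1 regions there (37.0% to 56.1%), where 14.4% of the wide regions elsewhere were zcrest 1-only. Their summits were higher, with a lowest, median and highest of 18, 46 and 190 reads against 8, 26 and 142 reads in the 1814 elsewhere. Their enrichment was lower, 5.07-fold against 7.46-fold at the median, on a local background of 3.74 against 1.12 times the median. Taken over all zcrest 1 regions in the stretches the background was 3.79, 4.26 and 3.44 times the zcrest 1 median, and at the zcrest 2 regions 0.8, 0.717 and 0.779 times the zcrest 2 median. Matched regions in them had median log2 ratios of -2.10 (38 pairs), -1.76 (18 pairs) and -2.49 (13 pairs).

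Leaving the stretches out changed the description of the whole little. The median summit of the wide zcrest 1-only regions stayed at 26 reads and that of the shared ones at 38, and 76.4% of the zcrest 1-only ones lay below the shared median. The surrounding ratio was -0.20 against -0.03 at the median and lay below 0 for 68.6% against 53.5%. Of the zcrest 1-only regions 19.3% had another within 50 kb. Of the 10 strongest, 2 lay in the stretches.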

How the data were processed

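ATAC-seq peak lists of zcrest 1 and zcrest 2, 1 library each, were analysed. The submitters' processing notes name MACS2 2.1.0 and build Zv9, and the peak names carry each library's own name. Aligner, duplicate handling, read shift and total reads: not given in the sources used here. Depth is therefore known only through the genome-wide background, 1.57 reads in zcrest 1 and 2.01 in zcrest 2. Each deposited list gives a score (10 times the -log10 q), a fold enrichment (a ratio of summit pileup plus 1 to local background plus 1), -log10 of p and of q, and the summit's offset, all the authors' own values. By the usual layout of such lists these deposited p-value and q-value columns come from a Poisson test of the summit against the background. The lowest -log10 q was 1.31 and 1.32. These values were used to describe and rank peaks within a list.

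Summit reads and local backgrounds were solved from fold and -log10 p over pileups up to 800 (largest error 0.000131), which recovered 100% of 3000 simulated peaks per list. The background window of 10 kb includes the peak's own reads. Distances are gaps between peak edges, and positions count from 1. Matched pairs overlap exactly 1 peak of the other list each. Shares carry exact (Clopper-Pearson) 95% intervals for counting error only. No test between lines was made. Named regions are the 10 of highest -log10 q, the 10 highest outside the chromosome 2 and 3 stretches, the 5 widest, the 5 farthest from zcrest 2 and the 5 groups of most members joined over 50 kb (6 with ties). The neighbour shares, distance zones, chromosome 4 zone, zcrest 2 regions without zcrest 1, regions with ratios of 0 or more and the raised-background setting were chosen after values were seen. The correlation over chromosomes, with and without chromosome 4, was not planned beforehand. Gene lists, motifs and sequences planned for these regions were not run, since no Zv9 reference was used here. Other widths, distances, strengths, overlaps and windows were tried. The members, the 3 stretches and the measures were chosen with earlier results of these data known. Python 3.11.15, pandas 2.3.3 and scipy 1.17.1 were used.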

Additional observations from a re-analysis of the deposited data

How the results depend on the processing

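The number of wide zcrest 1-only regions, 1866, was 3701 with a minimum width of 500 bp, 92 with 1000 bp and 764 with a distance of 20 kb. It stayed between 1346 and 2608 with a distance of 1 kb, a -log10 q of at least 10, weak zcrest 2 regions ignored, the stretches left out, or regions of raised background left out, the last chosen after seeing the data. The share with summits below the shared median, 75.1%, was 71.2% for a -log10 q of 10 or more, and 73.4% to 76.4% under the other settings. The share with a surrounding ratio below 0, 69.5%, was 71.7% at 1000 bp (92 regions) and 78.3% at 20 kb, and 67.7% to 69.9% under the others. The share with another member within 50 kb, 21.1%, was 33.7% at 500 bp, 0% at 1000 bp, 23.1% at 1 kb, 18.8% at 20 kb, 16.5% for a -log10 q of 10 or more, 12.9% for neighbours within 25 kb and 34.4% within 100 kb. Chromosome 4 held 35.1% zcrest 1-only regions against a common share of 15.3%. At 20 kb it held 22.2% against 6.87%, and under the other settings 31.5% to 41.4%, above the common share in each. No paired analysis was possible because each line has 1 library. Total read depth is known only through the genome-wide background, which was higher in zcrest 2 (2.01 reads) than in zcrest 1 (1.57 reads). Its part in which regions had a zcrest 2 call was not tested.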
